A study of Homo sapiens with 8 samples.

Results

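The ABC transporters that export drugs were examined as a family of 7 genes: ABCB1, ABCC1, ABCC2, ABCC4, ABCC5, ABCC10 and ABCG2. They were selected by gene symbol, and each symbol matched 1 of the 25369 named genes of the count table. No expression value was used to pick the rows, but the 7 genes were chosen with earlier results of these data known. Poly(A) RNA was sequenced from UWB1.289, a human ovarian cancer cell line that carries a truncating BRCA1 mutation (BRCA1-null), and in the same line transduced with wild-type BRCA1 (BRCA1+). Each line was exposed for 24 h to the DMSO vehicle (control) or to 0.5 uM entinostat, an inhibitor of class I histone deacetylases, which gave 4 groups of 2 libraries. BRCA1+ is a single transduced derivative of a single line, and the sources used here do not say whether the 2 libraries of a group came from separate cultures. The p-values therefore measure the spread between these libraries, which may be technical.

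ABC transporters use ATP to move substrates across membranes. ABCB1 (P-glycoprotein), ABCG2 (breast cancer resistance protein) and the ABCC genes listed here (multidrug resistance proteins, MRP) sit in cell membranes and lower the concentration of many anticancer drugs in the cell. In ovarian cancer ABCB1 is known for the export of taxanes, anthracyclines and several PARP inhibitors, and ABCG2 for the export of topotecan. ABCC1 and ABCC2 carry glutathione conjugates, ABCC4 and ABCC5 carry cyclic nucleotides and nucleotide analogues, and ABCC10 carries taxanes and vinca alkaloids.

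Total counts ranged from 31900158 to 53549893 per library, and all 7 transporter genes were among the 17714 genes that passed the filter on low counts. Levels are given as CPM (counts scaled by effective library size) within a gene, and as CPM per kilobase of listed transcript length (RPKM) between genes. The library labels were checked on BRCA1, whose mean level was 95.6 CPM in BRCA1+ control and 21.7 CPM in BRCA1-null control cells, a log2 difference of -2.14 ± 0.0861 (SE). All 11 markers of ovarian carcinoma and epithelium were detected, with a summed level of 14106 to 18537 CPM, although WT1 had only 1 to 20 counts per library.

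The sequences before the start of transcription are shown for the 3 genes whose levels changed by the largest factors, ABCB1, ABCG2 and ABCC2. These are the 250 bases upstream of the RefSeq start on GRCh38.p14, written 5′ to 3′ on the strand of the gene, at chr7:87600885-87601134 (minus strand) for ABCB1, chr4:88158640-88158889 (minus strand) for ABCG2 and chr10:99782390-99782639 (plus strand) for ABCC2. Each sequence also matched GRCh37, the genome of the counts, at 1 place, directly before the GENCODE canonical start. Of the 2 windows listed for ABCB1 and the 5 listed for ABCG2, the one at that start was taken. On GRCh37 these 2 windows lay at chr7:87230201-87230450 and chr4:89079792-89080041. Both are inside the spans of the counted genes, whose upstream ends are at 87342639 and 89152474. The ABCC2 window, at chr10:101542147-101542396 on GRCh37, lay partly inside the counted gene, which starts at 101542355. The counts do not separate transcripts from different starts. Capitals mark matches on either strand to 4 motifs, namely the letters GGGCGG of a GC box, the letters TATAAA of a TATA box, the letters CACGTG of an E-box and the letters CCAAT of the box bound by NF-Y, which read ATTGG when reversed. No matches overlapped.
ABCB1: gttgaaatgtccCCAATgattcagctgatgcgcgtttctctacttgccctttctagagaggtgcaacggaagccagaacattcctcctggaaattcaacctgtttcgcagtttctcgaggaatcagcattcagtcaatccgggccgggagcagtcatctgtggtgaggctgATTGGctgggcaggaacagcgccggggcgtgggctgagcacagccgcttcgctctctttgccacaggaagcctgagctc
ABCG2: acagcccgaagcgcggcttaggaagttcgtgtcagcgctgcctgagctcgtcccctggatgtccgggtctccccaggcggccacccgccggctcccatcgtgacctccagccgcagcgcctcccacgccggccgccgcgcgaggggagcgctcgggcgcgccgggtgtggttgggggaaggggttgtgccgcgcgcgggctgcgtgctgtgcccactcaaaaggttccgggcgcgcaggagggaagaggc
ABCC2: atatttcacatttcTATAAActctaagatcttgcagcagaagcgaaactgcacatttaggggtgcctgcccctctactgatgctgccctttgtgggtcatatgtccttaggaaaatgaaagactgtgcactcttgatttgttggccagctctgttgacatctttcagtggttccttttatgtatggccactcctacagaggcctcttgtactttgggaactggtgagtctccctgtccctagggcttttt

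The ABCB1 window held CCAAT on the gene's strand starting 238 bases before the start of transcription and its reverse, ATTGG, starting 79 bases before it. The ABCC2 window held TATAAA 236 bases before the start, and none of the 4 motifs was found in the ABCG2 window. Among all 34786 upstream windows of the same length, GGGCGG was present in 42.6%, CCAAT in 32.0%, TATAAA in 10.8% and CACGTG in 6.31%. CpG content set the windows apart: ABCG2 had 32 CpG and 73.6% G or C, ABCB1 had 12 CpG and 55.6%, and ABCC2 had 1 CpG and 45.6%, against medians of 11 CpG and 58.0% over all windows. Windows were found for 6 of the 7 genes, and ABCC4 had 42 CpG, ABCC5 21 and ABCC10 14. ABCC5 carried TATAAA 28 bases before the start and CCGCCC, the reverse of GGGCGG, 176 bases before it. ABCC10 carried TATAAA at 149 bases and CACGTG at 161 bases before the start. A match describes the letters of the window, not a bound site.

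**Figure D1:**
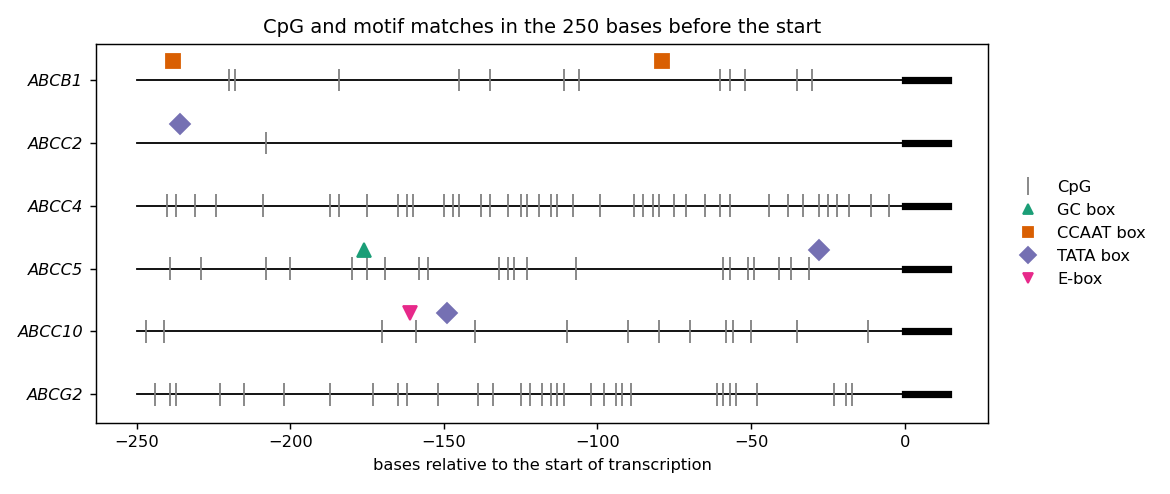
CpG and motif matches in the 250 bases before the start of 6 transporter genes, with the distance from the start in bases on the horizontal axis. Grey ticks are CpG, coloured symbols are motif matches on either strand at their first base, and the thick bar marks the start of the transcribed region. ABCC4, with 42 CpG, and ABCC2, with 1, are the extremes.

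The 7 genes spanned levels per transcript length from 0.0106 to 31.5 RPKM in single libraries. Among all tested genes, ABCC1 stood at the 80.4th percentile of mean RPKM, ABCC5 at 65.0, ABCC10 at 43.1, ABCC4 at 41.5, ABCG2 at 9.31, ABCC2 at 5.48 and ABCB1 at 1.82. In BRCA1+ control cells the order was ABCC1 with 26.2 ± 1.42 RPKM (SD, n = 2), ABCC5 with 11.4 ± 1.38, ABCC10 with 4.27 ± 0.497, ABCC4 with 3.08 ± 0.121, ABCG2 with 0.206 ± 0.0132, ABCC2 with 0.0605 ± 0.0119 and ABCB1 with 0.0145 ± 0.00557. No neighbours in that order overlapped between libraries.

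The order was not the same in every group. In BRCA1-null control cells ABCC10 (3.84 ± 0.181 RPKM) and ABCC4 (3.77 ± 0.264 RPKM) overlapped, and ABCC2 (0.175 ± 0.0376 RPKM) stood above ABCG2 (0.0652 ± 0.000754 RPKM). Under entinostat the BRCA1-null libraries of ABCC2 (0.189 ± 0.00663 RPKM), ABCG2 (0.185 ± 0.112 RPKM) and ABCB1 (0.115 ± 0.0481 RPKM) overlapped from each neighbour to the next. In BRCA1+ cells under entinostat ABCB1 (0.0751 ± 0.0545 RPKM) overlapped ABCC2 (0.0451 ± 0.0146 RPKM).

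ABCC1 made up 47.4% to 62.2% of the summed RPKM of the 7 genes in a library, and ABCC5 made up 22.4% to 31.9%. The share of ABCB1 did not pass 0.368% in any library, and those of ABCC2 and ABCG2 reached 0.533% and 0.771%. The summed level was 45.3 ± 3.20 RPKM (SD, n = 2) in BRCA1+ control, 50.1 ± 0.805 in BRCA1+ entinostat, 36.3 ± 2.17 in BRCA1-null control and 38.7 ± 2.66 in BRCA1-null entinostat cells. ABCC1 and ABCC5 make up most of these sums, and the 3 genes of low expression hardly enter them. In the same order of groups mean ABCC1 was 26.2, 31.2, 17.9 and 20.6 RPKM, and mean ABCC5 was 11.4, 11.4, 10.6 and 10.6 RPKM.

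**Figure D2:**
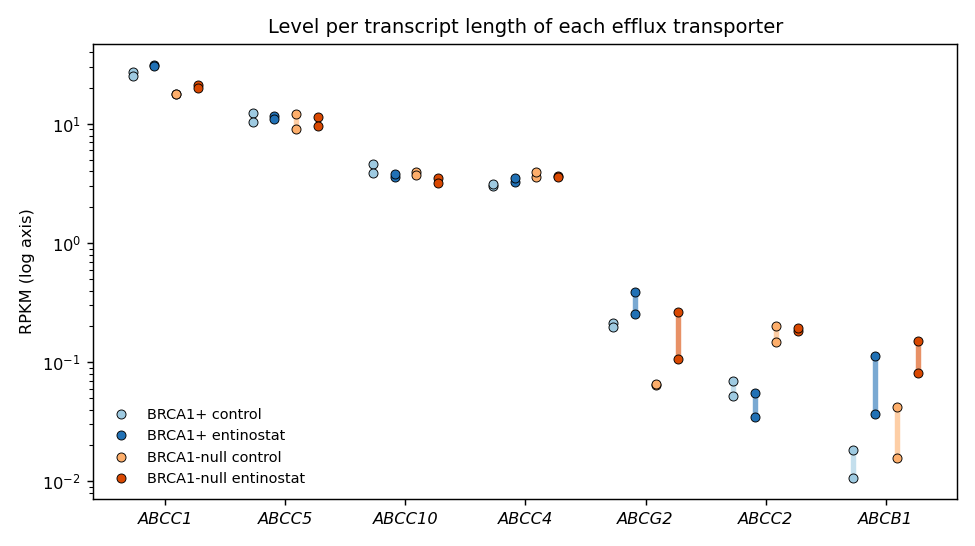
RPKM of each transporter gene on a log axis, with 1 point per library, a vertical bar joining the 2 libraries of a group, and colours for the 4 groups. ABCC1, ABCC5, ABCC10 and ABCC4 lie at 2.99 RPKM or more in every library, and ABCG2, ABCC2 and ABCB1 at 0.391 RPKM or less.

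The first comparison asks how the transporter genes differ with BRCA1 status in untreated cells. In DMSO, BRCA1-null cells had more ABCC2 and ABCC4 mRNA and less ABCC1 and ABCG2 mRNA than BRCA1+ cells, while ABCB1, ABCC5 and ABCC10 did not pass the test. Thus 4 of the 7 genes were called (edgeR quasi-likelihood test, Benjamini-Hochberg adjusted p under 0.05 over all genes), 2 in each direction, against 42.2% of all tested genes, 21.1% higher and 21% lower. The libraries of the 2 lines did not overlap for these same 4 genes (2 higher, 2 lower), nor for 70.9% of all genes, 36% higher and 34.8% lower. The median log2 difference of the 7 genes was -0.12, against 0.012 over all genes.

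ABCC1 (MRP1, exporter of glutathione conjugates and leukotriene C4, chr16:16043434-16236930 on hg19, plus strand) had 178.8 and 165.6 CPM in BRCA1+ control and 117.6 and 116.8 CPM in BRCA1-null control cells. The lower BRCA1-null values were far outside the spread of either pair. The log2 difference was -0.55 ± 0.0604 (SE), a fold of 0.681, with an adjusted p of 1.12e-04 in edgeR. In bulk RNA a smaller number of expressing cells and less RNA per cell cannot be told apart.

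ABCC2 (MRP2, an apical exporter of glutathione and glucuronide conjugates, chr10:101542355-101611949, plus strand) had 15 and 13 counts in BRCA1+ control and 50 and 44 counts in BRCA1-null control cells, or 0.375 and 0.283 CPM against 1.10 and 0.809 CPM. Both BRCA1-null libraries were higher than both BRCA1+ libraries. The log2 difference was 1.52 ± 0.346 (SE), a 2.87-fold higher level (95% interval 1.67 to 4.94), with an adjusted p of 0.00680 in edgeR.

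ABCG2 (a transporter that works as a dimer, chr4:89011416-89152474, minus strand) had 41 and 43 counts in BRCA1+ control and 14 and 17 counts in BRCA1-null control cells, which is 1.03 and 0.937 CPM against 0.308 and 0.313 CPM. The pairs lay close together and did not overlap. The log2 difference was -1.65 ± 0.511 (SE), a 3.13-fold lower level in BRCA1-null cells, with an adjusted p of 0.0284 in edgeR. It did not pass when any of the 4 control libraries was omitted, where the log2 difference was -1.71 to -1.59 and the adjusted p 0.0832 to 0.102.

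ABCC4 (MRP4, exporter of cyclic nucleotides and prostaglandins, chr13:95672083-95953687, minus strand) differed by less. It had 18.7 and 19.8 CPM in BRCA1+ control and 22.4 and 24.7 CPM in BRCA1-null control cells, a log2 difference of 0.29 ± 0.0865 (SE) with an adjusted p of 0.0235 in edgeR. The call was lost at a similar size when only these 2 groups were fitted (0.29, adjusted p 0.0505), and without BRCA1+ control replicate 1 (0.25, adjusted p 0.115), BRCA1+ control replicate 2 (0.33, adjusted p 0.0548) or BRCA1-null control replicate 2 (0.22, adjusted p 0.156). The call of ABCC2 was also lost without BRCA1+ control replicate 2 (log2 difference 1.32, adjusted p 0.0636), whereas ABCC1 passed in every such fit.

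Among the 3 genes that did not pass, ABCC5 (MRP5, chr3:183637724-183735727, minus strand) had 87.7 and 73.9 CPM in BRCA1+ control and 85.2 and 64.1 CPM in BRCA1-null control cells. The pairs overlapped, and the log2 difference of -0.12 had a 95% interval of -0.43 to 0.19. ABCC10 (MRP7, chr6:43395292-43418163, plus strand) had 25.2 and 21.4 CPM against 21.7 and 20.3 CPM, with an interval of -0.37 to 0.074. ABCB1 (chr7:87133179-87342639, minus strand) had only 2 and 4 counts in BRCA1+ control and 9 and 4 counts in BRCA1-null control cells. The ratio of the summed ABCB1 counts, scaled to library size, was 1.86 with an exact counting interval of 0.661 to 5.98. No difference between the lines was thus detectable in DMSO at this depth.

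**Figure D3:**
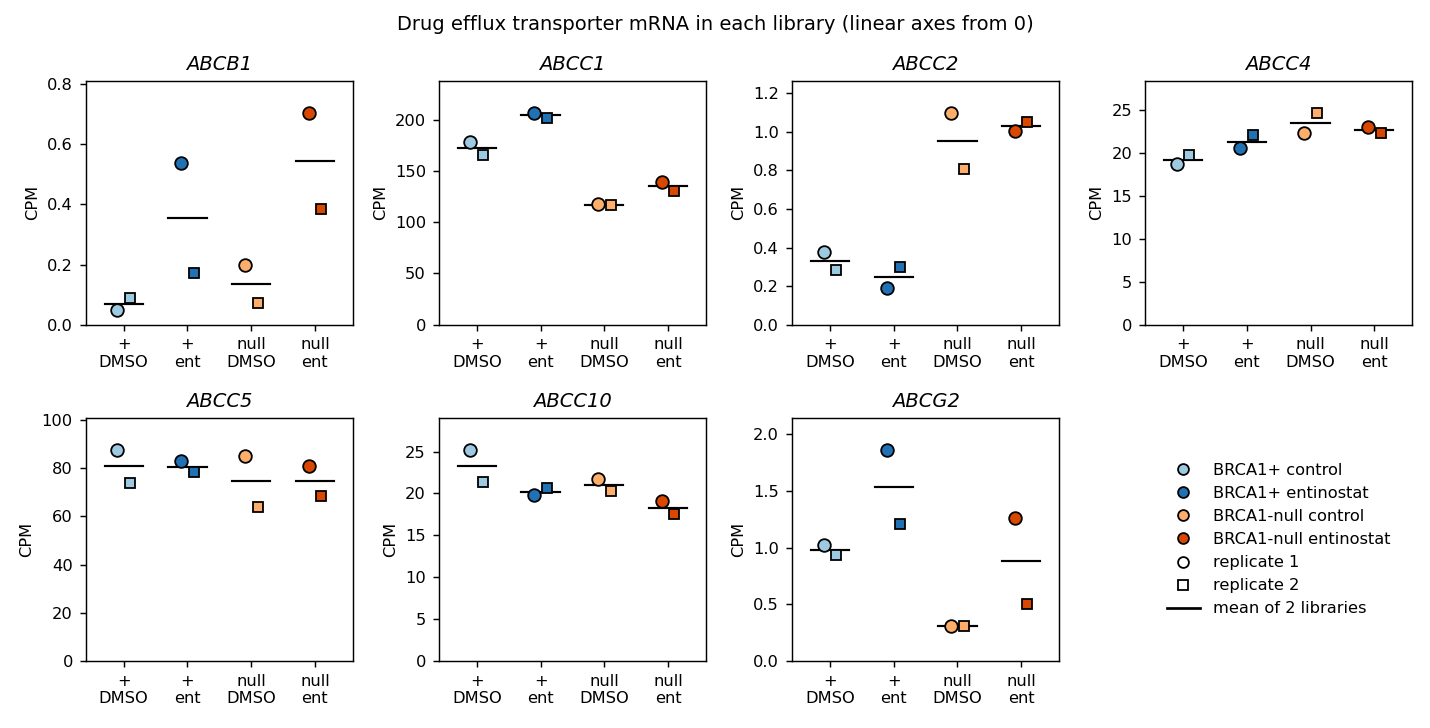
CPM of each transporter gene in the 8 libraries, on linear axes that start at 0 and differ between panels. Circles are replicate 1, squares are replicate 2, and bars are means of 2 libraries (+, BRCA1+; null, BRCA1-null; ent, entinostat). ABCC1 is lower and ABCC2 higher in both BRCA1-null groups, and ABCB1 and ABCG2 are higher under entinostat within each line.

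Under entinostat the comparison of the lines was repeated with other libraries. ABCC1 was lower and ABCC2 higher in BRCA1-null cells, and the other 5 genes did not pass, so that 2 of the 7 were called (1 in each direction) against 39.4% of all tested genes, 20.5% higher and 18.9% lower. Libraries did not overlap for 4 of the 7 genes, ABCC1 and ABCC10 lower and ABCC2 and ABCC4 higher, and for 69.5% of all genes, 36.3% higher and 33.3% lower. The median log2 difference of the 7 genes was -0.11, against 0.019 over all genes.

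ABCC1 had 206.8 and 202.1 CPM in BRCA1+ entinostat and 139.7 and 130.6 CPM in BRCA1-null entinostat cells, a log2 difference of -0.60 ± 0.0603 (SE; adjusted p 7.68e-05 in edgeR). ABCC2 had 6 and 14 counts against 47 and 44 counts, or 0.189 and 0.302 CPM against 1.00 and 1.05 CPM. Its log2 difference was 1.99 ± 0.378 (SE; adjusted p 0.00276 in edgeR), a 3.98-fold higher level in BRCA1-null cells.

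ABCG2 had 1.86 and 1.21 CPM in BRCA1+ entinostat and 1.26 and 0.503 CPM in BRCA1-null entinostat cells, and the libraries overlapped. The log2 difference was -0.71 ± 0.382 (SE; adjusted p 0.175 in edgeR). It was -1.55 without BRCA1-null entinostat replicate 1, which had 59 ABCG2 counts against 21 in its partner, and the adjusted p was then 0.0244. ABCC4, which had passed in DMSO, had a log2 difference of 0.088 with a 95% interval of -0.11 to 0.29. For ABCB1 the libraries overlapped, and the log2 difference was 0.78 (95% interval -0.41 to 1.97, adjusted p 0.281 in edgeR). Its ratio of summed counts was 1.73, with an exact counting interval of 1.05 to 2.92 that leaves out the spread between libraries.

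The next comparisons ask how each line responds to the deacetylase inhibitor. Averaged over both lines, ABCB1, ABCC1 and ABCG2 mRNA rose with entinostat. These 3 of the 7 genes were called, all higher, against 26.1% of all tested genes, 15.2% higher and 10.9% lower. The median log2 change of the 7 genes was 0.051, against 0.0038 over all genes. Within BRCA1+ cells 1 of the 7 genes was called, ABCC1, against a background of 14.1%, 8.13% higher and 6% lower. Of those calls over all genes 1441 of 2503 were higher, and with upper-quartile factors 1753 of 2418 were, with ABCC1 again the only one of the 7. Within BRCA1-null cells 0 of the 7 genes passed in edgeR, against 10.8% of all genes, 7.57% higher and 3.19% lower, although 3 (ABCB1, ABCC1 and ABCG2) had an unadjusted p under 0.05. DESeq2 also called 1 of the 7 in BRCA1+ and 0 in BRCA1-null cells, with no adjusted p for ABCB1. These counts depend on the fit. With the replicate number as a block in edgeR, ABCB1 and ABCC1 passed in BRCA1+ cells. In BRCA1-null cells ABCB1, ABCC1 and ABCG2 then passed. Over all 17714 genes that fit called 4314 in BRCA1+ and 3640 in BRCA1-null cells. The lines were not shown to differ in these responses, as the tests of the difference further on show.

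ABCB1 carried the largest change, on the lowest counts. In BRCA1+ cells it had 2 and 4 counts in control and 17 and 8 under entinostat. In BRCA1-null cells the control had 9 and 4 counts and entinostat 33 and 16. In CPM these were 0.050 and 0.0872 against 0.536 and 0.172 in BRCA1+, and 0.198 and 0.0736 against 0.704 and 0.383 in BRCA1-null cells. Entinostat libraries lay above control libraries within each line, but replicate 2 of BRCA1+ entinostat fell below replicate 1 of BRCA1-null control.

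The averaged log2 change of ABCB1 was 2.11 ± 0.529 (SE), a 4.31-fold increase with a 95% interval of 1.89 to 9.82 and an adjusted p of 0.0174 in edgeR. In BRCA1+ cells alone the log2 change was 2.15 ± 0.866 with an adjusted p of 0.133, and in BRCA1-null cells alone it was 2.06 ± 0.613 with an adjusted p of 0.0618. Ratios of summed counts were 4.58 (exact counting interval 1.83 to 13.7) and 4.25 (2.27 to 8.53). The averaged change did not pass without BRCA1+ control replicate 1, BRCA1+ control replicate 2, BRCA1+ entinostat replicate 1 or BRCA1-null entinostat replicate 1, with log2 changes of 1.95, 2.34, 1.66 and 1.84 and adjusted p-values of 0.0584, 0.0517, 0.0882 and 0.0529. The 2 counts of BRCA1+ control replicate 1 were under the floor of 3 counts, the upper limit where nothing is counted.

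ABCG2 had 1.03 and 0.937 CPM in BRCA1+ control and 1.86 and 1.21 CPM in BRCA1+ entinostat cells. In BRCA1-null cells it went from 0.308 and 0.313 CPM to 1.26 and 0.503 CPM. Entinostat libraries were higher within each line, and replicate 1 was the higher library of both entinostat pairs. The averaged log2 change was 1.06 ± 0.321 (SE), a 2.09-fold increase with a 95% interval of 1.26 to 3.45 and an adjusted p of 0.0384 in edgeR.

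Within the lines the log2 difference of ABCG2 was 0.59 ± 0.378 with an adjusted p of 0.347 in BRCA1+ and 1.53 ± 0.518 with an adjusted p of 0.0940 in BRCA1-null cells. The averaged call was lost in 6 of 8 fits that omitted 1 library (any of the 4 control libraries, or replicate 1 of either entinostat group), with log2 changes of 0.64 to 1.09 and adjusted p-values of 0.0694 to 0.203. The smallest change came without BRCA1-null entinostat replicate 1, where the log2 difference within BRCA1-null cells was 0.69. Without replicate 2 of that group it was 2.01 and passed, with an adjusted p of 0.0357.

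ABCC1, the most abundant of the 7, rose by a small amount. It went from 178.8 and 165.6 to 206.8 and 202.1 CPM in BRCA1+ cells and from 117.6 and 116.8 to 139.7 and 130.6 CPM in BRCA1-null cells, without overlap in either line. The log2 change was 0.25 ± 0.0599 (SE) with an adjusted p of 0.0271 in BRCA1+ and 0.21 ± 0.0605 with an adjusted p of 0.0616 in BRCA1-null cells. Averaged over lines it was 0.23 ± 0.0426, a 17.0% increase, with an adjusted p of 0.00512 in edgeR. The averaged change passed with each library left out in turn. The BRCA1+ change did not pass without BRCA1+ control replicate 2 or without either BRCA1+ entinostat library, with log2 changes of 0.19, 0.23 and 0.26 and adjusted p-values of 0.112 to 0.151.

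The other 4 genes did not pass. ABCC10 was lower under entinostat without overlap in either line, at 25.2 and 21.4 against 19.8 and 20.6 CPM in BRCA1+ and 21.7 and 20.3 against 19.1 and 17.5 CPM in BRCA1-null cells. Its averaged log2 difference was -0.20 ± 0.0719 (SE; adjusted p 0.0729 in edgeR), and without BRCA1+ control replicate 2 it was -0.26 and passed (adjusted p 0.0362). ABCC5 was at 82.8 and 78.4 CPM in BRCA1+ entinostat and 81.0 and 68.5 CPM in BRCA1-null entinostat cells, overlapping the controls, and its averaged log2 difference of 0.0013 had a 95% interval of -0.22 to 0.22. An averaged change of ABCC5 beyond 1.17-fold in either direction lay outside that interval.

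For ABCC4, at 20.6 and 22.1 CPM in BRCA1+ entinostat and 23.1 and 22.4 CPM in BRCA1-null entinostat cells, the averaged interval was -0.088 to 0.19. ABCC2, with 6 to 50 counts per library, had a wider interval of -0.74 to 0.52. Across all 7 genes, libraries did not overlap for 5 genes in BRCA1+ cells (ABCB1, ABCC1, ABCC4 and ABCG2 higher, ABCC10 lower) and for 57% of all genes, 28.9% higher and 28.1% lower. In BRCA1-null cells they did not overlap for 4 genes (ABCB1, ABCC1 and ABCG2 higher, ABCC10 lower) and for 54.7% of all genes, 30% higher and 24.7% lower.

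**Figure D4:**
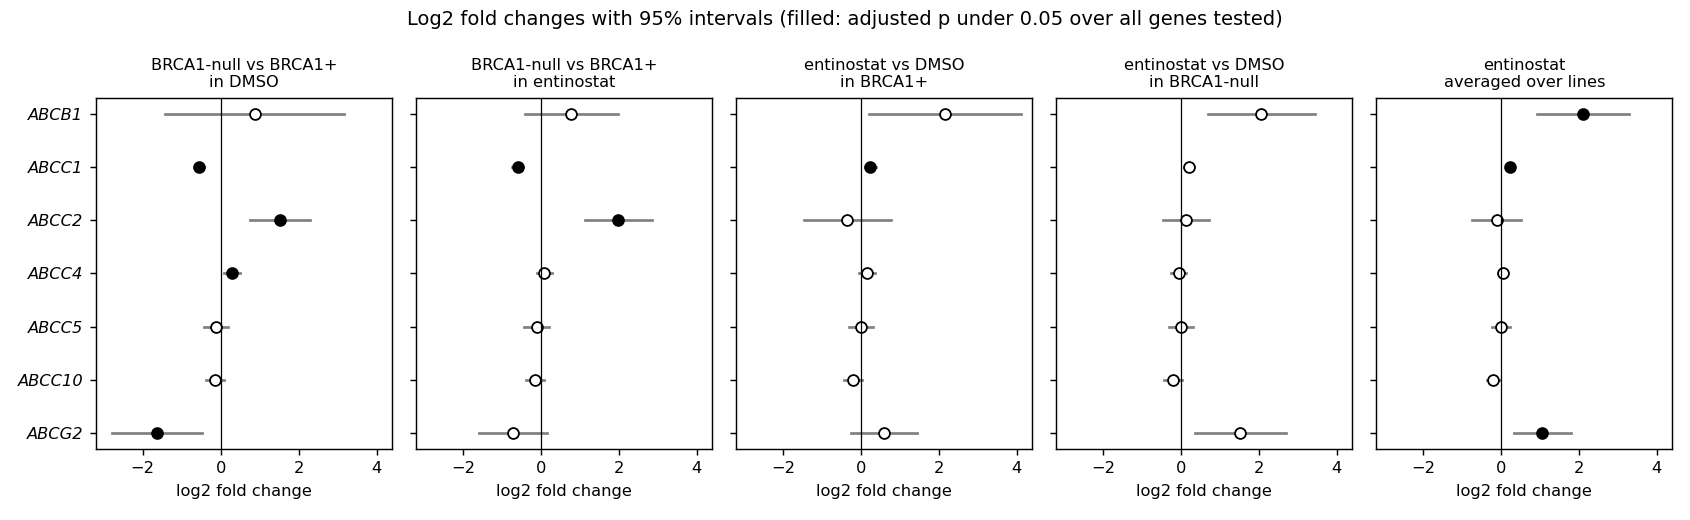
Log2 fold changes of the 7 genes in 5 comparisons, with 95% intervals as horizontal bars and filled points where the adjusted p was under 0.05. ABCC1 and ABCC2 are filled in both comparisons of the lines, and ABCB1, ABCC1 and ABCG2 are filled where entinostat is averaged over lines.

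Whether the response differed between the lines was tested as an interaction, the entinostat change in BRCA1-null minus that in BRCA1+ cells. None of the 7 genes passed (smallest adjusted p 0.967 in edgeR), 0 had an unadjusted p under 0.05, and 0% of all tested genes were called. Over all genes 827 had an unadjusted p under 0.05, and DESeq2 called 11. The log2 difference was 0.93 for ABCG2 (95% interval -0.54 to 2.41), 0.47 for ABCC2 (-0.80 to 1.74) and -0.094 for ABCB1 (-2.32 to 2.13), so that sizeable differences in either direction remained within the intervals for these 3. The intervals were narrower for ABCC1 (-0.23 to 0.15), ABCC10 (-0.32 to 0.33), ABCC4 (-0.48 to 0.075) and ABCC5 (-0.43 to 0.45).

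Other genes of the ABC superfamily were followed as lists. Of 20 further ABCB, ABCC and ABCG genes 11 were tested, and with entinostat averaged over lines 5 rose and 2 fell (63.6%, median log2 change 0.082), against 26.1% of all genes. ABCG4, which exports sterols, rose from a mean of 1.30 to 5.03 CPM (log2 change 1.96 ± 0.193, adjusted p 2.46e-04), and ABCC3, an MRP of the basolateral membrane, rose from 62.4 to 90.5 CPM (0.54 ± 0.0450, adjusted p 1.22e-04). ABCB8 and ABCB10, transporters of the mitochondrial inner membrane, fell by 0.28 and 0.22 on the log2 scale. In the comparison of the lines in DMSO 2 of the 11 were higher in BRCA1-null cells and 0 were lower (18.2%, median 0.22), against 42.2% of all genes, among them ABCB4, the phospholipid transporter beside ABCB1, with a log2 difference of 1.57. Under entinostat 3 of the 11 were higher in BRCA1-null cells and 0 lower (27.3%, against 39.4%), with ABCB10 at 0.30 and ABCC9, a subunit of ATP-sensitive potassium channels, at 0.47. ABCB4 was also among the 5 that rose with entinostat (1.11), and ABCB4 and ABCB10 are named here after their values were seen.

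Of 20 genes of the ABCA, ABCD, ABCE and ABCF groups, which mostly handle lipids, peroxisomal fatty acids or ribosomes and are not drug exporters, 16 were tested. In DMSO 6 were higher and 2 lower in BRCA1-null cells (8 of 16, median log2 difference 0.17), against 42.2% of all genes. ABCA4, a retinoid transporter, was at 219 CPM in BRCA1+ and 6.45 CPM in BRCA1-null cells, a log2 difference of -5.09 ± 0.175. ABCA1, a cholesterol exporter, was higher by 1.09 and ABCA3, a lipid transporter, by 0.99, and ABCD3, of the peroxisome, was lower at -0.47. Under entinostat 8 of the 16 were higher and 2 lower in BRCA1-null cells (62.5%, against 39.4%). With entinostat averaged over lines 3 rose and 4 fell (43.8%, median 0.084), against 26.1% of all genes, with ABCA3 at 0.49, ABCA7 at 0.32 and ABCF2 at -0.29.

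Regulators and membrane anchors of efflux pumps formed a list of 18 genes, of which 17 were tested. In DMSO 4 were higher and 7 lower in BRCA1-null cells (64.7%, median log2 difference -0.23), against 42.2% of all genes. CAV1, the coat protein of caveolae, was at 571 CPM in BRCA1-null and 210 CPM in BRCA1+ control cells (1.44 ± 0.132), and RXRA, the partner of the xenobiotic receptors, was higher by 1.41. EZR, which ties membrane proteins to actin, was at 471 against 1049 CPM (-1.16 ± 0.0644), and NFYA, a subunit of the factor that binds CCAAT, was lower at -0.78. Under entinostat 3 were higher and 7 lower (58.8%, against 39.4%), with CAV1 at 1.59, EZR at -1.21 and RDX, a relative of EZR, at -0.77. Averaged over lines, entinostat raised 3 and lowered 2 (29.4%, median -0.024), against 26.1% of all genes. MSN, another relative of EZR, changed by 0.41, HIF1A by 0.25, KEAP1, the inhibitor of NRF2, by -0.34 and NFYA by -0.20.

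Genes of glutathione synthesis and conjugation, which make the conjugates that MRP proteins carry, were tested for 19 of 22. In DMSO 4 were higher and 6 lower in BRCA1-null cells (52.6%, median log2 difference 0.070), against 42.2% of all genes, and under entinostat 5 were higher and 6 lower (57.9%, against 39.4%). GSTM3 was higher by 1.10 and GSTO2 by 0.54 in DMSO, whereas MGST3 (-1.06) and GSTA4 (-1.12) were lower, all 4 being transferases. With entinostat averaged over lines 5 rose and 1 fell (31.6%, median 0.049), against 26.1% of all genes, with GSTA4 at 0.92, GSTM3 at 0.74 and GSTZ1 at -0.32.

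Transporters for drug and platinum uptake, together with other efflux genes, were tested for 21 of 24. In DMSO 5 were higher and 4 lower in BRCA1-null cells (42.9%, median log2 difference 0.15), near the 42.2% of all genes, and under entinostat 5 were higher and 5 lower (47.6%, against 39.4%). SLCO2A1, a prostaglandin transporter, was at 96.0 against 24.7 CPM (1.96 ± 0.237), and SLC46A1, a folate transporter, was higher by 0.82. SLC29A2, a nucleoside transporter, and SLC22A5, a carnitine transporter, were lower at -0.47 and -0.41. Larger decreases were those of SLC22A3 (-3.30, 0.354 against 3.52 CPM) and SLC22A2 (-4.21, 0.0184 against 0.412 CPM), and SLCO1B3 was higher by 1.55. These genes had a mean log2 CPM under 1 and are named here after their values were seen. With entinostat averaged over lines 6 rose and 3 fell (42.9%, median -0.074), against 26.1% of all genes. ATP7A, a copper pump, rose by 0.70 and SLCO3A1 by 0.56, while SLC19A1, the reduced folate carrier, changed by -0.48 and SLCO2A1 by -0.58.

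Within the single lines 14.1% of all genes were called in BRCA1+ and 10.8% in BRCA1-null cells. Entinostat in BRCA1+ cells raised and lowered 2 and 0 of the further ABCB, ABCC and ABCG genes, 1 and 3 of the ABCA to ABCF genes, 1 and 2 of the regulators, 3 and 0 of the glutathione genes and 3 and 3 of the uptake genes. In BRCA1-null cells the same counts were 2 and 2, 2 and 2, 1 and 1, 3 and 0, and 2 and 1. No gene of these lists was called in the interaction.

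**Figure D5:**
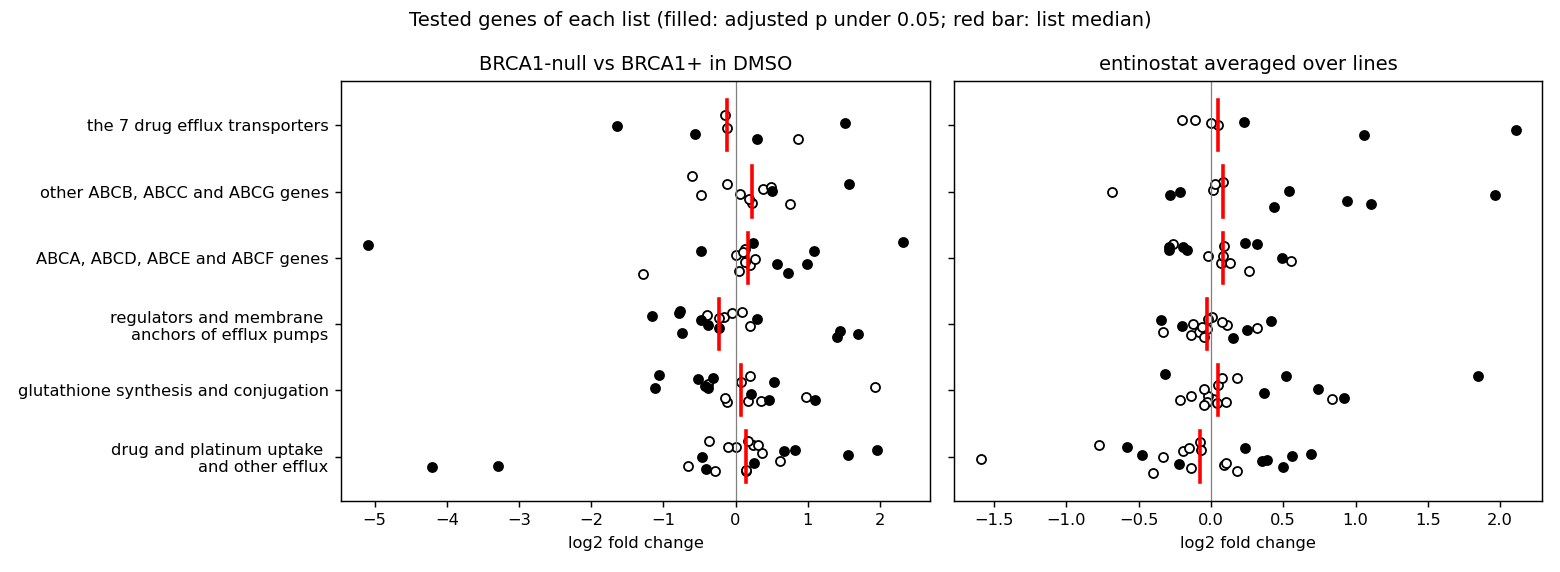
Log2 fold changes of the tested genes of each list in BRCA1-null against BRCA1+ cells in DMSO (left) and with entinostat averaged over lines (right). Each point is 1 gene, filled where the adjusted p was under 0.05, vertical scatter has no meaning, and red bars are list medians. The medians lie between -0.23 and 0.22 on the left and between -0.074 and 0.082 on the right, while single genes range more widely.

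Genes near the transporters were also followed, as the median log2 difference of all tested genes within 1 Mb of each. Over all tested genes 21.1% were higher and 21% lower in BRCA1-null cells in DMSO, with a median of 0.012. With entinostat averaged over lines 15.2% were higher and 10.9% lower, with a median of 0.0038. In DMSO the 14 neighbours of ABCC1 had a median of -0.074 with 0 higher and 3 lower in BRCA1-null cells, the 20 neighbours of ABCC2 a median of 0.15 with 6 higher and 3 lower, and the 16 neighbours of ABCG2 a median of 0.11 with 2 higher and 1 lower. Of the 9 neighbours of ABCC4, 0 were higher and 3 lower, with a median of -0.28, whereas ABCC4 itself was higher. For the genes that did not pass, 1 was higher and 6 lower of 13 neighbours of ABCB1. For ABCC5 10 were higher and 1 lower of 30, and for ABCC10 6 were higher and 15 lower of 43. With entinostat averaged over lines the 13 neighbours of ABCB1 had a median of 0.18 with 4 higher and 1 lower, the 14 neighbours of ABCC1 a median of -0.015 with 2 higher and 3 lower, and the 16 neighbours of ABCG2 a median of 0.033 with 4 higher and 2 lower.

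Listed genes that share positions with a transporter can share reads with it, since the sources used here do not say how strand and repeated positions were counted. RUNDC3B, on the other strand, shares 84911 bases of its span with ABCB1 but 0 exon bases in GENCODE. It had 15 to 30 counts per library and a log2 difference of 0.59 ± 0.266 (SE) with entinostat averaged over lines, which did not pass (adjusted p 0.136 in edgeR). ABCC10 and DLK2 share 76 exon bases in GENCODE, and ABCC5 contains ABCC5-AS1 on the other strand, with 57 to 108 counts, neither of which passed in any comparison. ABCC1 lies inside the listed spans of several repeated genes, of which LOC100288162 was lower with entinostat averaged over lines (-0.38 ± 0.0942, adjusted p 0.0172), opposite to ABCC1.

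The genes whose log2 CPM followed each transporter most closely over the 8 libraries were taken by Pearson's r among 13118 genes of at least moderate level, as a description. For ABCB1 they were NEK1 (0.977), RASSF5 (0.973) and MXI1 (0.957), for ABCG2 KIAA0895L (0.985), RUNX2 (0.982) and CACNA1D (0.972), and for ABCC2 TMEM248 (0.989), TNFRSF6B (0.987) and DIEXF (0.986). For ABCC1 they were RPS6KA5 (0.997), WDR76 (0.997) and UPK3B (0.996), for ABCC4 TCF4 (0.953), RNF207 (0.952) and TMEM41A (0.949), for ABCC5 KLF6 (0.948), CREBRF (0.943) and PAX6 (0.941), and for ABCC10 RBM42 (0.969), TPM3P9 (0.969) and CCDC124 (0.968). The 8 points share 4 groups of 2 libraries, and for ABCC5 replicate 1 was the higher library in all 4 groups.

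Markers of other cell types were low but not constant. The summed level of 4 endothelial markers was 9.48 to 16.2 CPM in BRCA1+ control, 27.3 to 38.3 in BRCA1+ entinostat, 36.6 to 54.3 in BRCA1-null control and 75.1 to 92.9 CPM in BRCA1-null entinostat cells, mostly CDH5. The 5 leukocyte markers summed to 15.2 to 15.6, 21.6 to 23.8, 23.5 to 26.6 and 29.7 to 37.4 CPM in the same order, with CD3E at 0 to 4 counts. Of 5 fibroblast markers DCN and LUM were at 0 in all libraries, and the sum, nearly all COL1A1, was 4.07 to 4.48, 14.9 to 15.8, 9.14 to 9.16 and 17.5 to 22.6 CPM. Epithelial markers summed to 15091 to 16026, 18322 to 18537, 14106 to 15726 and 15847 to 17621 CPM. All 4 sums were higher under entinostat within each line, as ABCB1, ABCC1 and ABCG2 were, and those of the 3 other cell types were higher in BRCA1-null cells under each treatment, as ABCC2 was. Their part in these results was not tested.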

How the data were processed

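The deposited values were raw read counts per gene symbol in 8 libraries, which the authors made by aligning reads to hg19 with TopHat and counting them per gene. They carried no normalisation. The handling of strand and of reads with several positions is not given in the sources used here. Groups and replicate numbers came from the sample titles. One entry without a name had 0 counts and was left out.

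For testing, edgeR 4.0.16 (R 4.3.3) was used. The filterByExpr filter left 17714 genes, library sizes were scaled by TMM, and 1 quasi-likelihood fit held a mean for each of the 4 groups. Tests were two-sided, with Benjamini-Hochberg adjustment over all genes and a threshold of 0.05. Adjusted p-values without another name come from this test. CPM use effective library sizes, and RPKM divide them by the listed length. Exact Poisson intervals (95%) cover counting error only, since reads without molecular identifiers are not independent molecules. The script was tested on simulated data. Upstream sequences are RefSeq's.

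The 7 genes, the lists and the tests were chosen with earlier results of these data known, and the lists were compiled from general knowledge. List genes named were, per comparison, at most 2 higher and 2 lower with the largest changes, if called and at a mean log2 CPM no lower than 1, of which some are printed and some are not reported here. For each of the 7, the 3 genes with the highest Pearson's r at the same minimum level and the tested genes that overlap it were added. Alternatives were DESeq2 1.42.0 (size factors and Wald test), upper-quartile factors, no filter or a filter of at least 1 CPM in 2 libraries, a replicate block, only the groups compared, and each library left out.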

Additional observations from a re-analysis of the deposited data

How the results depend on the processing

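Of 605 values of the 7 genes under alternatives 524 kept their direction and side of the threshold, 22 fell below the threshold, 8 rose past it and 51 changed sign. Of 370 counts of called genes over the lists, 311 stayed within 1.5 times, 49 were smaller and 10 larger. The sign changes of ABCC5 under entinostat gave log2 values of 0.044 in BRCA1+ cells with upper-quartile factors, 0.020 with at least 1 CPM in 2 libraries and 0.0057 with the replicate block. In BRCA1-null cells they gave -0.0021 with DESeq2 size factors, -0.0060 with at least 1 CPM, -0.0047 with the DESeq2 Wald test and -0.016 with only the groups compared. Averaged over lines they gave -0.0017 with DESeq2 size factors, -0.0027 without a filter and -0.0031 with the Wald test. In the interaction ABCC5 gave -0.00080, -0.032, -0.026 and -0.0033, and ABCC10 -0.0028, -0.035, -0.029 and -0.0012, with DESeq2 size factors, upper-quartile factors, at least 1 CPM and the Wald test. None of these values passed the test in any setting, and the cause was not tested.

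With 1 library left out, the number of the 7 genes called ranged from 1 to 4 between the lines in DMSO, from 0 to 1 for entinostat in each line, and from 1 to 3 averaged over lines. Calls over all genes moved too, to as few as 5312 from 7472 in DMSO, 676 from 2503 in BRCA1+, 512 from 1906 in BRCA1-null cells and 3057 from 4622 averaged. Sign changes came with log2 ranges of -0.31 to 0.077 (DMSO), -0.23 to 0.0072 (entinostat) between the lines, -0.12 to 0.12 (BRCA1+), -0.19 to 0.20 (BRCA1-null), -0.095 to 0.10 (averaged) and -0.18 to 0.20 (interaction) for ABCC5. For ABCC2 they were -0.098 to 0.32 in BRCA1-null cells and -0.33 to 0.0047 averaged, and for ABCC4 -0.14 to 0.025 in BRCA1-null cells. In the interaction they were -0.83 to 0.78 for ABCB1, -0.11 to 0.013 for ABCC1 and -0.12 to 0.12 for ABCC10.

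Replicate numbers are shared between groups in the labels. Deviations of same-numbered libraries correlated at 0.0523 to 0.287 over 6 pairs of groups. The highest values were those between control and entinostat within a line, 0.287 in BRCA1+ and 0.200 in BRCA1-null cells. With 2 numbers and no label that ties them to a shared culture or day, the numbers were not taken to pair the libraries. With the replicate number as a block, 2 of the 7 genes were called for entinostat in BRCA1+ cells (ABCB1 and ABCC1), 3 in BRCA1-null cells (ABCB1, ABCC1 and ABCG2) and 4 averaged over lines (ABCC10 added, adjusted p 0.0266), and ABCC10 gave -0.0033 in the interaction. Over all genes the block called 4314, 3640 and 6351 of 17714, against 2503, 1906 and 4622 without it. Between the lines the block left the calls of the 7 genes as they were. Over all genes it called 8956 in DMSO and 8398 under entinostat, against 7472 and 6975 without it.

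Depth limits ABCB1 most: it was not tested with at least 1 CPM in 2 libraries and had no adjusted p in DESeq2 for entinostat within either line.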
